A study of Mus musculus with 2 samples.

Results

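The red cell membrane skeleton was followed here through 8 genes that encode its structural proteins: Slc4a1, Ank1, Epb42, Sptb, Epb41, Dmtn, Add2 and Tmod1. They were taken by name from the spots of a mouse expression array, with older aliases such as Spnb1 for Sptb and Epb4.9 for Dmtn. This gave 26 spots, each a different probe, of 43379 spots for genes or transcripts, and 8 genes of 13954 measured. Of the 26 probes, 24 were well above background in at least 1 channel on both arrays, while 1 of Dmtn and 1 of Epb41 were not and have no ratio.

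The cells were G1E-ER-GATA-1, a mouse erythroid line without GATA-1 that carries an estradiol-switched GATA-1 fusion protein. One arm had been treated with siRNA against Lmo2, which encodes a bridging protein of the GATA-1 and TAL1 complex, and the other with control siRNA. Both arms then received b-estradiol for 24 h, so GATA-1 was switched on in both. RNA of the LMO2 siRNA arm (Cy3) and of the control siRNA arm (Cy5) was hybridised together on 2 arrays in the same orientation, so a difference between dyes and one between siRNAs cannot be told apart. The labels number the arrays as replicates and do not say that the cultures were separate, so the spread between arrays may be technical. The p-values lean mostly on the spread shared by all genes, and they are not shown to measure variation between cultures. All cells come from 1 line, and fewer cells of a type and less RNA per cell cannot be told apart in bulk RNA.

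The membrane skeleton is a lattice under the red cell membrane that lets the cell deform and recover its shape. Spectrin tetramers form its sides, and short actin filaments form its nodes. It is tied to the membrane at ankyrin complexes, through band 3, and at junctional complexes around protein 4.1R, adducin, dematin and tropomodulin. These genes are strongly induced as erythroid precursors mature, and inherited defects of several of them cause spherocytosis or elliptocytosis.

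The probes of Ank1 and of Sptb did not all give the same call, and 4 of them are shown here for that reason. The Ank1 pair holds a probe that fell with LMO2 siRNA and the brightest Ank1 probe, which was not called. The Sptb pair holds a probe called lower with and without position correction and one called in neither, and their difference from each other was not tested. All 4 are 60 bases long, are taken from the array files and read 5′ to 3′, and each has at least 1 reading frame without a stop codon.
Ank1 A_52_P655842: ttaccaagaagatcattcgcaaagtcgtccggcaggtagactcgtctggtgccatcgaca
Ank1 A_51_P269375: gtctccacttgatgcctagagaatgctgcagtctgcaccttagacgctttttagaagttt
Sptb A_51_P452371: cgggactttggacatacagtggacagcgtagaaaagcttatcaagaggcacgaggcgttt
Sptb A_52_P672338: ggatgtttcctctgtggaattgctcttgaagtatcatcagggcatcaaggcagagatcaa

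A pair of Add2 probes gives the ratio of shared sequence at distant places on the array. These probes share a run of 40 bases, in capitals, and were printed 341 rows apart.
Add2 A_51_P452854: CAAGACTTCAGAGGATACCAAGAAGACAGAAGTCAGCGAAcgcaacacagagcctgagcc
Add2 A_52_P623053: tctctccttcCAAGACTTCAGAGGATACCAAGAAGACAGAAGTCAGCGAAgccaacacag
The 50 bases that align differ at C41G and G42C, counted from 1 at the 5′ end of the first Add2 probe, with its base first.

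Lmo2, the siRNA target, checks the labels. Its normalised signal was 1735 and 1573 intensity units with LMO2 siRNA and 6114 and 6361 with control siRNA, and the arms do not overlap. It fell by 1.92 ± 0.14 on the log2 scale (SD, n = 2), 3.77-fold, and had the lowest log2 ratio of all 13954 genes (limma, adjusted p = 5.9e-30).

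Ratios were read in 3 sets of values, because the log2 ratio drifted with the row of a spot. Without correction for position, the median log2 ratio of all probes was -0.23 in the first of 20 bands of rows and 0.12 in the last, on a print of 532 rows. After division by the scanner's own position ratio, the band medians lay between -0.07 and 0.13, with the highest in the first band. The third set holds the scanner's processed signals. A change is called a rise or a fall only where limma called it in 1 direction in all 3 sets, at an adjusted p of 0.05.

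In no set was a skeleton gene called higher with LMO2 siRNA. Slc4a1, Sptb, Epb41 and Add2 were called lower both with and without position correction, by 1.16-fold to 1.63-fold uncorrected and by 1.22-fold to 1.30-fold corrected. Dmtn and Tmod1 were called lower only with position correction, and the Dmtn call was lost when p was adjusted over all probes in place of genes. Ank1 and Epb42 were called in no set at their brightest probe. No gene of the 8 passed in all 3 sets, since none was called in the processed signals.

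Without position correction, limma called 4 of the 8 genes lower and 0 higher, against 27.8% of all genes called lower and 24.9% called higher, or 52.7% in either direction. With position correction 6 were lower, against 20.5% of all genes. The 4 called lower in both stand against 13.3% of all genes. In the processed signals 0 of the 8 were called (4 at an unadjusted p under 0.05, all lower), against 3.98% of all genes called lower and 7.5% called higher. In all 3 sets 2.83% of all genes were called lower and 5.84% higher. The median log2 ratio of the 8 genes was -0.16 uncorrected, -0.23 corrected and -0.24 in processed signals, while the medians of all genes were -0.02, -0.01 and -0.03.

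**Figure D1:**
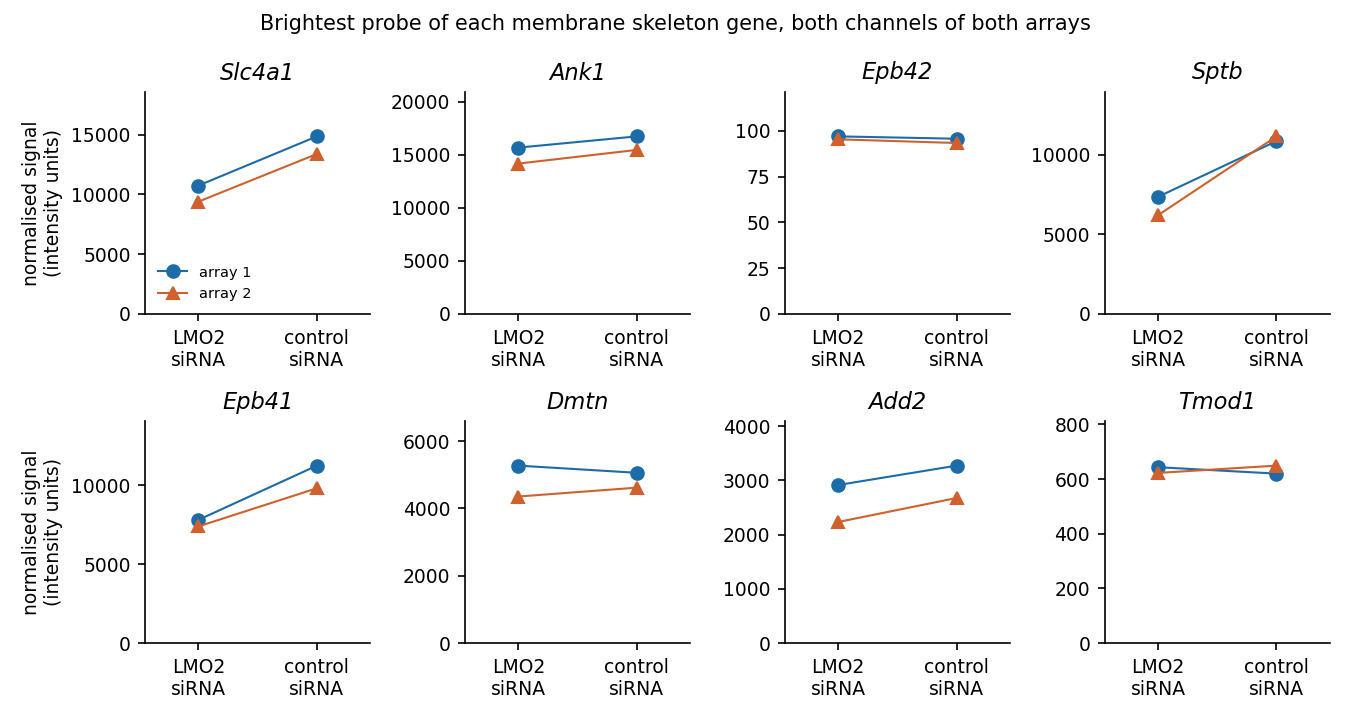
Normalised signal (intensity units, linear axes from 0) of the brightest probe of each gene in the LMO2 siRNA channel and in the control siRNA channel, without position correction, with 1 line per array. Slc4a1, Sptb, Epb41 and Add2 are lower with LMO2 siRNA on both arrays, Dmtn and Tmod1 cross between arrays, and Epb42 sits at the dim end of the scale.

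Slc4a1 encodes band 3, the anion exchanger of the red cell and the main membrane anchor of the lattice. Its single probe read 10750 and 9404 intensity units with LMO2 siRNA, against 14866 and 13392 with control siRNA. Both LMO2 siRNA values lie below both control values. The log2 ratio was -0.47 and -0.51 on the arrays, with a mean of -0.49 ± 0.03 (SD, n = 2; adjusted p = 5.32e-10, limma), or 1.40-fold lower. With position correction the mean was -0.34 (adjusted p = 0.00061), and in processed signals it was -0.33 and missed the threshold (adjusted p = 0.0589). Of all genes, 3.77% had a ratio at or below it uncorrected and 4.08% corrected. Slc4a1 lies on chromosome 11, bases 102348820 to 102365281 of GRCm38.p6.

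Ank1 (chromosome 8, 22974836 to 23150501) encodes ankyrin-1, which links band 3 to beta-spectrin. The brightest of its 5 probes read 15691 and 14185 with LMO2 siRNA, against 16752 and 15475 with control siRNA. The arms overlap across arrays, and on each array the LMO2 siRNA value is the lower one. Its mean log2 ratio was -0.11 ± 0.02 (SD, n = 2; adjusted p = 0.103, limma). With position correction it was -0.04 (adjusted p = 0.577).

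Another pair of Ank1 probes gave a different answer. The probe in row 1 of the array, A_52_P655842 above, read 574 and 470 with LMO2 siRNA against 1050 and 1029 with control siRNA. The arms do not overlap, and the probe fell by 1.002 ± 0.18 on the log2 scale (adjusted p = 4.89e-09 over all probes). It lay at -0.55 with position correction (adjusted p = 4.65e-05) and at -0.68 in processed signals (adjusted p = 0.0474). Probes of like brightness near its row had a median of -0.37 uncorrected and -0.01 corrected. It differed from the brightest Ank1 probe by -0.89 uncorrected (adjusted p = 1.1e-05) and by -0.51 corrected (adjusted p = 0.00242).

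The Ank1 probe A_52_P562817 in row 288 read 8520 and 6933 with LMO2 siRNA against 12718 and 10002 with control siRNA. It fell by 0.55 ± 0.03 (adjusted p = 9.71e-07), with -0.60 in both other sets (adjusted p = 2.19e-05 with position correction and 0.0477 in processed signals). Probes of like brightness around it had a median of -0.01 uncorrected and -0.02 corrected, so the drift near it was close to 0. The remaining Ank1 probes, in rows 65 and 327, had means of -0.49 and -0.08 uncorrected and were both called lower with position correction, at -0.24 and -0.22.

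All 5 Ank1 probes therefore lay below 0 in the means of both sets, 3 called lower uncorrected and 4 corrected. The difference of the row 288 probe from the brightest probe was -0.44 uncorrected (adjusted p = 0.000558 over 7806 such pairs) and -0.56 corrected (adjusted p = 0.00176). Such differences were common, since 51.4% of all probe pairs of a gene were called uncorrected and 26.2% corrected, and none of the 7806 pairs was called in the processed signals as well. Averaged over its 5 probes, Ank1 was at -0.45 uncorrected and was called lower (adjusted p = 8.85e-07, limma). This average includes drift, since probes of like brightness near rows 1, 65 and 167 had medians of -0.37, -0.24 and -0.17. Near rows 288 and 327 they had medians of -0.01 and 0.02. An average with position correction was not tested.

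Epb42 (chromosome 2, 121017891 to 121036877) encodes a protein without catalytic activity from the transglutaminase family, which binds band 3 and ankyrin. Its probe with the higher normalised signal read 97.0 and 95.4 with LMO2 siRNA and 95.8 and 93.4 with control siRNA. Before background correction those spots read 68.3 and 59.5 with LMO2 siRNA and 96.4 and 85.3 with control siRNA, over local backgrounds of 42 and 37 and of 47.5 and 48. The flag for signal above background was set in both channels, but the spots were dim. The ratio of 0.03 ± 0.008 (adjusted p = 0.743) does not show that Epb42 was unchanged. The second Epb42 probe was as dim and lay at 0.10 uncorrected and -0.04 corrected.

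**Figure D2:**
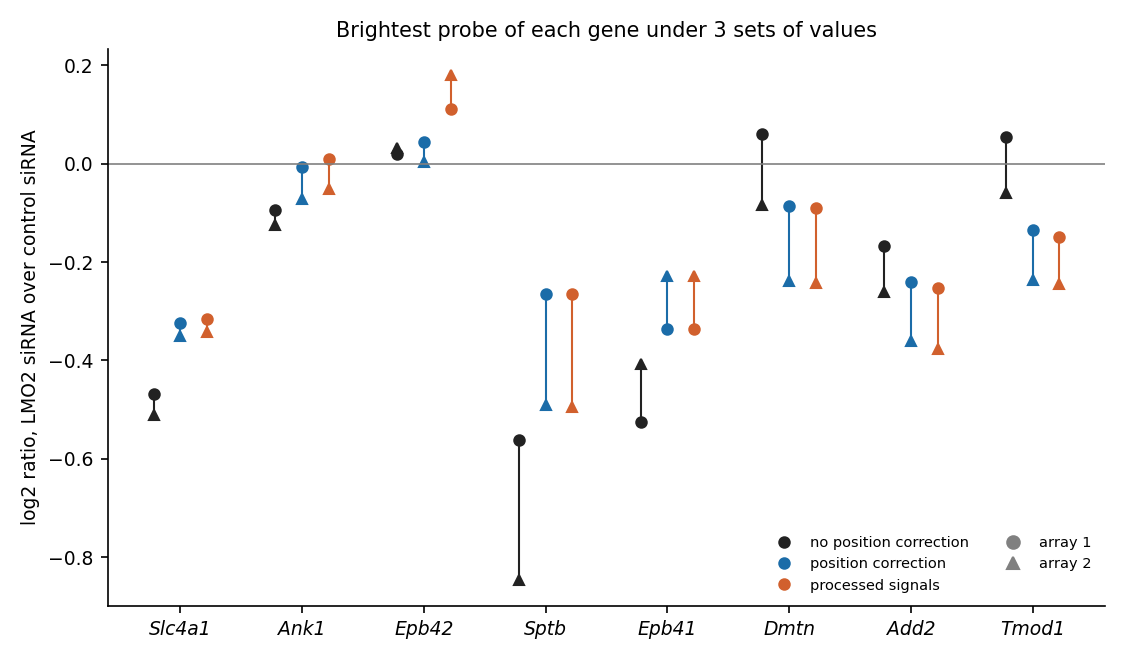
Log2 ratio of LMO2 siRNA over control siRNA for the brightest probe of each gene, with circles for array 1 and triangles for array 2, without position correction (black), with it (blue) and in processed signals (orange). Slc4a1, Sptb, Epb41 and Add2 lie below 0 on both arrays in all 3 sets, and Dmtn and Tmod1 only with position correction and in processed signals.

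Sptb (chromosome 12, 76580488 to 76710547) encodes erythroid beta-spectrin, the chain that carries the ankyrin and actin binding sites. Its brightest probe, in row 50, read 7350 and 6195 with LMO2 siRNA against 10847 and 11144 with control siRNA, without overlap. The log2 ratio was -0.56 and -0.85, with a mean of -0.70 ± 0.20 (SD, n = 2; adjusted p = 9.75e-14, limma), 1.63-fold lower, and 0.659% of all genes lay at or below it. This is the lowest uncorrected mean among the 8 genes, and the one with the widest gap between arrays. Probes of like brightness near row 50 had a median of -0.31. With position correction the mean was -0.38 (adjusted p = 0.000905), 1.30-fold lower, and in processed signals -0.38 (adjusted p = 0.0777). Averaged over its 4 probes, Sptb was at -0.18 uncorrected and was called lower (adjusted p = 0.0158, limma). Probes of like brightness near the 4 had medians of -0.31, -0.21, 0.02 and 0.02, so this average includes drift. The 4 corrected means were -0.38, -0.29, -0.11 and 0.37, and their average was not tested.

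The next Sptb probes lay closer to 0 the further down the array they were printed. A_51_P452371, in row 117, read 7833 and 6350 with LMO2 siRNA against 9839 and 9502 with control siRNA, and its mean was -0.46 uncorrected and -0.29 corrected, both called lower. A_52_P672338, in row 274, read 5319 and 4293 with LMO2 siRNA against 5004 and 5124 with control siRNA. The arms overlap there, and the mean was -0.08 ± 0.24 uncorrected and -0.11 corrected, neither called. Its difference from the brightest probe was 0.62 uncorrected (adjusted p = 6.5e-05) and 0.27 corrected (adjusted p = 0.0349).

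Another, dim Sptb probe ran the other way. A_51_P489138, in row 368, read 134 and 133 with LMO2 siRNA against 89.4 and 97.5 with control siRNA, and it rose by 0.52 ± 0.09 on the log2 scale, with 0.37 corrected and 1.14 in processed signals. Which Sptb transcripts each probe detects was not analysed here.

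Of the 3 measured spectrins of other cells, 2 were higher with LMO2 siRNA. Sptbn1, the widely expressed beta-II spectrin, read 1113 and 994 with LMO2 siRNA against 442 and 419 with control siRNA. It rose by 1.29 ± 0.06 (SD, n = 2; adjusted p = 8.32e-24), 2.45-fold, with 1.59 corrected and 1.72 in processed signals. All 3 of its probes were called higher in all 3 sets, but by unlike amounts. The probes in rows 162 and 200 were at 0.18 and 0.24 uncorrected, at 0.26 and 0.22 corrected, and at 1.01 and 1.11 in processed signals. Sptan1, the alpha-II spectrin that pairs with it, read 321 and 322 with LMO2 siRNA against 179 and 162 with control siRNA. It rose by 0.92 ± 0.10 (adjusted p = 2.62e-18), with 0.71 corrected and 1.07 in processed signals, on 1 probe. Sptbn4, named after its values were seen, was called lower uncorrected (-0.32) and was not called with position correction (-0.15). Levels of different probes cannot be set against each other, so these data do not say which spectrin was more abundant.

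Epb41 (chromosome 4, 131923413 to 132075346) encodes protein 4.1R, which strengthens the bond between spectrin and actin. Its brightest probe, in row 180, read 7820 and 7406 with LMO2 siRNA against 11258 and 9823 with control siRNA, without overlap. The mean log2 ratio was -0.47 ± 0.08 (SD, n = 2; adjusted p = 2.28e-09, limma), 1.38-fold lower. It was -0.28 with position correction (adjusted p = 0.00238) and -0.28 in processed signals (adjusted p = 0.08). The 3 other measured Epb41 probes were dim, with control signals between 98.8 and 290, and had means of -0.03, 0.15 and 0.07, none called. The mean over all probes was -0.07 and was not called (adjusted p = 0.319), so the call rests on the brightest probe.

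Dmtn (chromosome 14, 70602184 to 70636048) encodes dematin, which bundles actin at the junctions. Its brightest probe read 5272 and 4355 with LMO2 siRNA against 5060 and 4619 with control siRNA. The arms overlap, with array 1 above 0 and array 2 below. The mean was -0.01 ± 0.10 uncorrected (adjusted p = 0.871) and -0.16 with position correction (adjusted p = 0.0426). Adjusted over all probes in place of genes, the corrected value missed the threshold (adjusted p = 0.0558, limma). The second probe lay at 0.05 uncorrected and -0.09 corrected, called in neither set.

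Tmod1 (chromosome 4, 46038940 to 46116032) encodes tropomodulin-1, which caps the pointed ends of the short actin filaments. Its brightest probe, in row 386, read 643 and 622 with LMO2 siRNA against 620 and 649 with control siRNA, with overlapping arms. The mean was -0.0035 uncorrected (adjusted p = 0.965) and -0.19 corrected (adjusted p = 0.0201). The second probe, in row 237, was called lower in both, at -0.22 uncorrected and -0.20 corrected. The pair shares a run of 22 bases, GTGAAAGCTTTTTCTTTAGGCA, and differed by 0.22 without position correction and by 0.01 with it.

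Add2 (chromosome 6, 86028681 to 86124409) encodes beta-adducin, which caps actin and recruits spectrin to the junctions. Its brightest probe, in row 307, read 2915 and 2233 with LMO2 siRNA against 3272 and 2676 with control siRNA, lower on each array although the arms overlap across arrays. The mean log2 ratio was -0.21 ± 0.07 (SD, n = 2; adjusted p = 0.00147, limma), 1.16-fold lower. It was -0.30 with position correction (adjusted p = 0.00177) and -0.31 in processed signals (adjusted p = 0.0731).

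The Add2 probes that share 40 bases lay at -0.39 in row 51 and at 0.07 in row 392 uncorrected, the first called lower. With position correction they lay at -0.09 and -0.11, neither called, so 0.47 of difference became 0.02 in size. Another Add2 probe, A_51_P514270 in row 275, read 646 and 558 with LMO2 siRNA against 331 and 317 with control siRNA. It rose by 0.89 ± 0.11 (adjusted p = 7.15e-09 over all probes), with 0.83 corrected and 1.0004 in processed signals. It differed from the brightest probe by 1.10 uncorrected and 1.13 corrected (adjusted p = 2e-06 and 8.1e-05). Over all probes the mean for Add2 was 0.09 and was not called, so the sign of the gene's ratio turns on which probe is read.

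Among the other adducins, Add1, the widely expressed alpha subunit that pairs with Add2, read 3422 and 3097 with LMO2 siRNA against 3271 and 3650 with control siRNA. Its mean was -0.09 ± 0.21 uncorrected and -0.13 corrected, called in neither. Add3, the gamma subunit of non-erythroid cells, read 4444 and 4908 with LMO2 siRNA against 3910 and 4430 with control siRNA. It was called higher in those sets, at 0.17 ± 0.03 uncorrected and 0.37 corrected, on each of its 2 probes, and missed the threshold in processed signals (adjusted p = 0.0524).

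**Figure D3:**
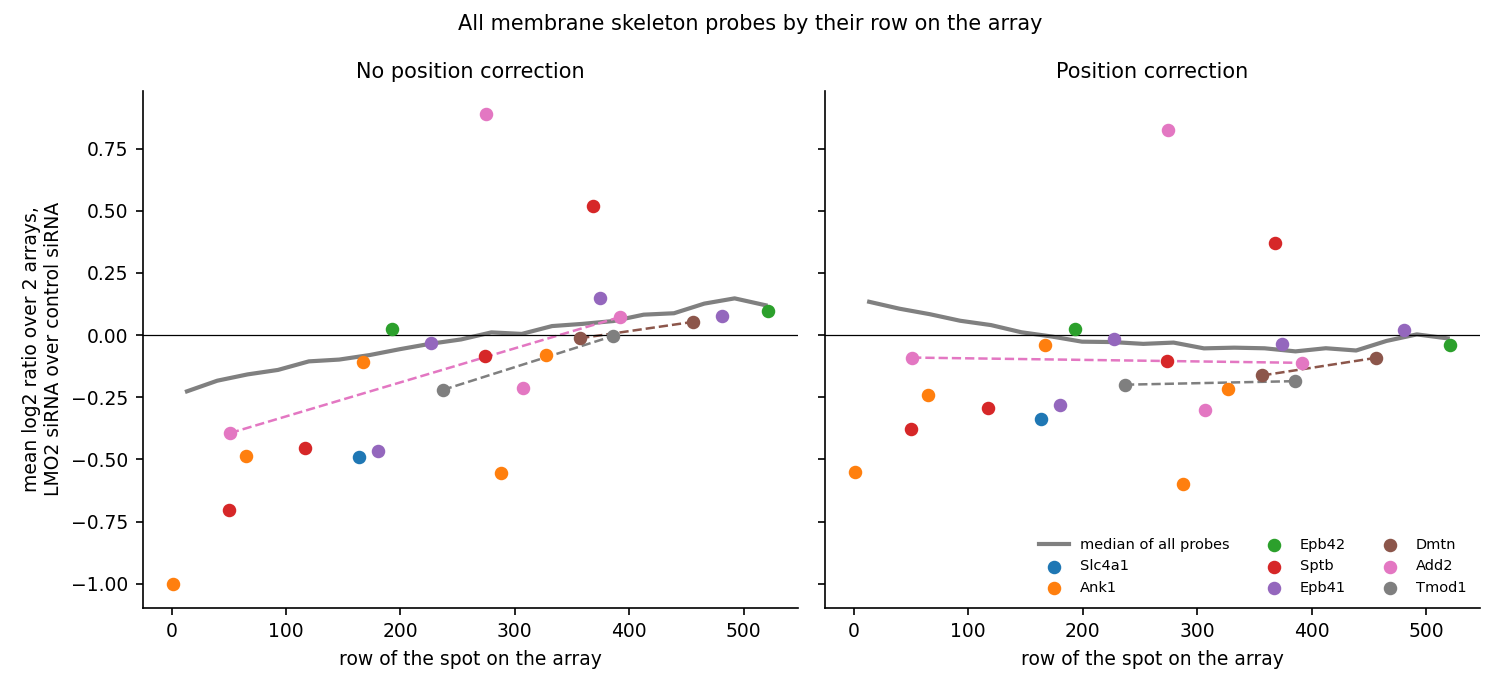
Mean log2 ratio of LMO2 siRNA over control siRNA over 2 arrays for each of the 24 measured probes against its row on the array, without position correction (left) and with it (right). The grey line is the median of all probes in 20 bands of rows, dashed lines join probes that share sequence, and the shared Add2 and Tmod1 pairs are level only on the right.

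Over the 24 measured probes, 10 were called lower and 2 higher uncorrected, against 24.4% and 21.6% of all probes. With position correction 11 were lower and 2 higher, against 18% and 20.9%. In processed signals 2 were lower and 2 higher, against 1.18% and 3.43%. In all 3 sets 2 probes fell, both of Ank1, and 2 rose, 1 of Add2 and 1 of Sptb, against 0.8% and 2.62% of all probes. Probes below 0 on both arrays numbered 12 uncorrected, 17 corrected and 15 in processed signals. The same share over all probes was not counted, so these numbers do not show an excess. Across the whole array, 148 unsaturated probe pairs that share at least 20 bases and lie over 100 rows apart differed by a median of 0.27 uncorrected, 0.07 corrected and 0.07 in processed signals. The difference was smaller with position correction in 127 of them, or 85.81%.

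Beside the skeleton genes, 24 of 27 genes for proteins that sit with them in the red cell membrane were measured. Of these, 10 were called higher and 7 lower uncorrected, and 9 higher and 6 lower with position correction, with medians of 0.02 and 0.01, near those of all genes. Of all genes, 24.9% were called higher and 27.8% lower uncorrected, and 24.1% and 20.5% with position correction. In all 3 sets 3 of the 24 rose and 1 fell, against 5.84% and 2.83% of all genes. Slc2a1, the glucose transporter that binds the junctional complex in human red cells, read 2525 and 2300 with LMO2 siRNA against 4664 and 4343 with control siRNA. It fell by 0.90 ± 0.02 (adjusted p = 2.62e-18), 1.87-fold, with -0.71 corrected. Icam4, an adhesion protein of the ankyrin complex, read 6660 and 5973 with LMO2 siRNA against 3706 and 3573 with control siRNA. It rose by 0.79 ± 0.07 (adjusted p = 3.28e-16), 1.73-fold, with 0.62 corrected.

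The other genes that passed in all 3 sets, named after their values were seen, were Rhd, a Rhesus antigen protein, and Tpm3, a tropomyosin of the actin filaments, with means of 0.31 and 0.33 uncorrected. Xk, the membrane protein that is bound to Kell, was called higher at its brightest probe (0.57 ± 0.03 uncorrected, 0.39 corrected) but not in processed signals. Its 4 probes ranged from 0.0032 to 0.57 uncorrected and were all called higher with position correction. Actb, the beta-actin of the filaments, was at 0.54 ± 0.22 uncorrected and 0.35 corrected, called higher in both, and was not called in processed signals. Its second probe was at 0.13 uncorrected, not called, and at 0.18 corrected, called higher.

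Of 34 genes in the same protein families as the 8 skeleton genes, 25 were measured, 6 called higher and 6 lower uncorrected and 7 higher and 3 lower corrected. Their median log2 ratio was 0.04 uncorrected and -0.07 corrected, so it changes sign with the correction. The shares of all genes were 24.9% higher and 27.8% lower uncorrected, and 24.1% and 20.5% corrected. In all 3 sets 5 of the 25 rose and 2 fell, against 5.84% and 2.83% of all genes. Beside Sptbn1 and Sptan1, the rises included Ank2, an ankyrin of other tissues, at 0.52 ± 0.15 (0.48 corrected), which was called higher on both of its probes. They also included Avil, an actin-binding headpiece protein like dematin, at 0.53 ± 0.14 (0.51 corrected), and Tgm2, an enzyme of the transglutaminase family to which the Epb42 protein belongs, at 0.32 (0.47 corrected). These 3 genes were dim. Ank2 read 131 and 151 with LMO2 siRNA against 98.3 and 97.2 with control siRNA. Avil read 152 and 153 against 98.4 and 114, and Tgm2 145 and 147 against 118 and 116. Adjusted over all probes, Avil missed the threshold in processed signals (adjusted p = 0.0566, limma). Ablim3 and Tmod3, a second tropomodulin, fell, at -0.33 and -0.29 (-0.45 and -0.46 corrected), and Ablim3 was not well above background in both channels. Tgm2, Ablim3 and Tmod3 were chosen after their values were seen.

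**Figure D4:**
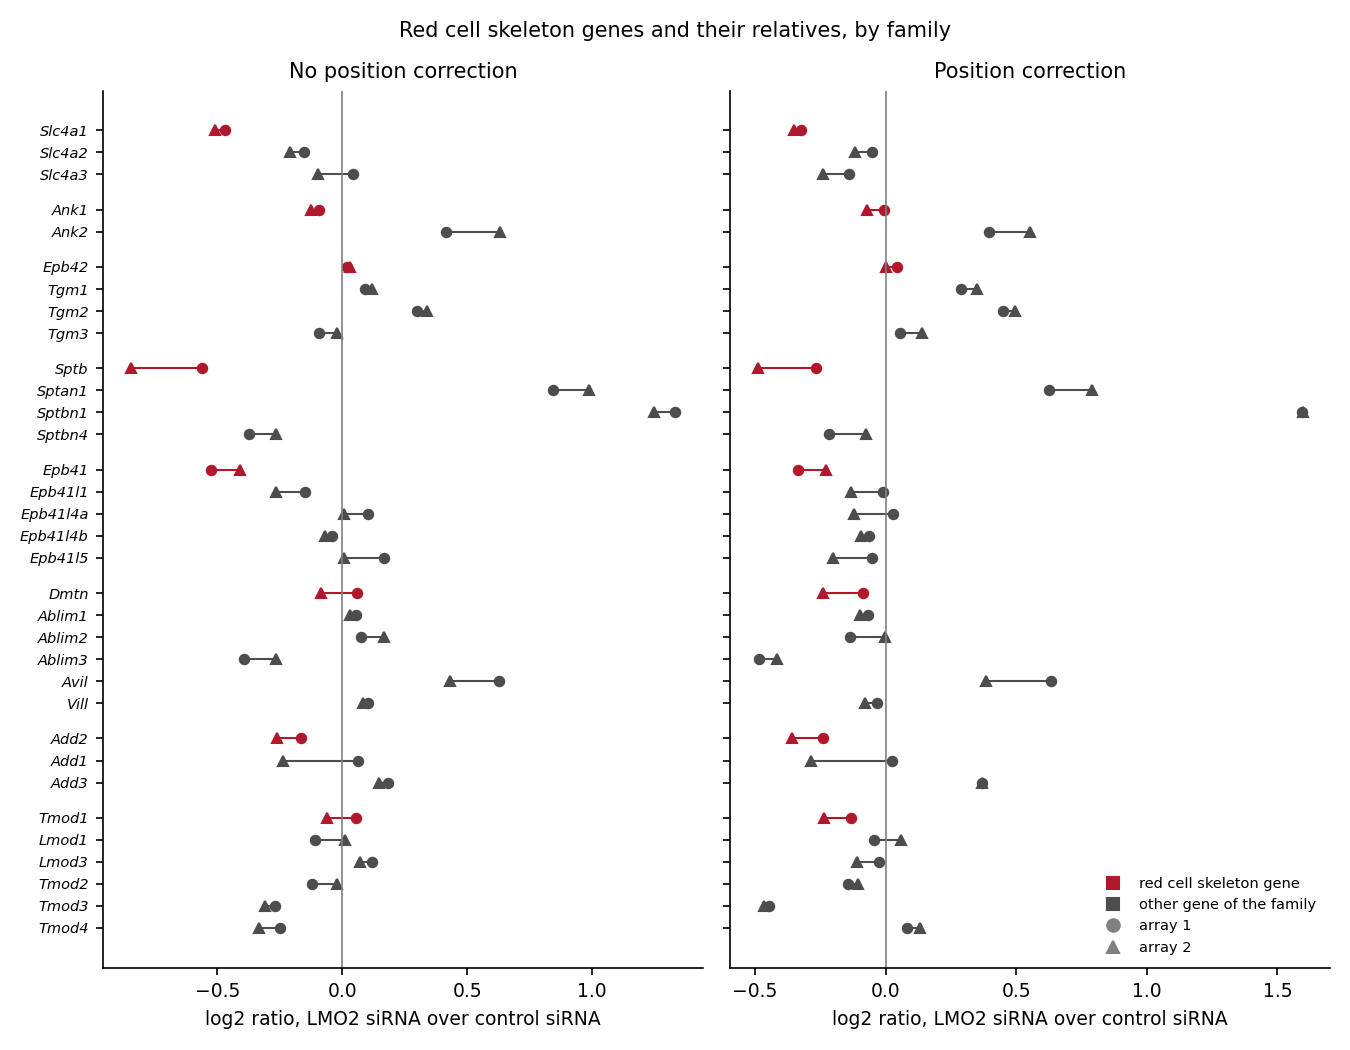
Log2 ratio of LMO2 siRNA over control siRNA for the red cell skeleton genes (red) and the other measured genes of their families (grey), without position correction (left) and with it (right). Circles are array 1 and triangles array 2, and Sptbn1 and Sptan1 lie to the right of 0 while Sptb lies to the left in both panels.

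The labels give the tissue as erythroid but name the cell type as ES cells. All 13 erythroid markers were well above background in both channels, with 4 saturated, and 5 were called higher and 5 lower, in uncorrected and in corrected values. The summed signal of the 9 unsaturated ones was 90516 and 80362 with LMO2 siRNA and 91511 and 84036 with control siRNA. Without Epor, which was called higher in both sets, that sum was 79610 and 70829 with LMO2 siRNA against 82846 and 76376 with control siRNA. The pluripotency genes Nanog, Sox2 and Zfp42 were not above background, and Pou5f1 was not above it in both channels. The other 3 of the 7 pluripotency genes, Dppa4, Dppa5a and Esrrb, were flagged above background in both channels, but Dppa4 and Esrrb were dim. Before background correction Dppa4 read 58.2 and 57.8 with LMO2 siRNA, over local backgrounds of 42 and 40. Esrrb read 64.4 and 56.1, over 38 and 39.5. Dppa5a was called higher (0.38 uncorrected and 0.16 corrected) and missed the threshold in processed signals, and the other two were called in neither of the first sets. Among markers of other cells, the 8 measured of 9 for megakaryocytes summed to 3238 and 3247 with LMO2 siRNA against 2409 and 2294 with control siRNA, with 2 called higher and 1 lower uncorrected and 4 higher and 1 lower corrected. Without Gp1ba, the sum was 1545 and 1487 with LMO2 siRNA against 1645 and 1534 with control siRNA, so the excess rests on that gene. The 6 measured of 8 for mast cells and basophils summed to 1323 and 1346 with LMO2 siRNA against 802 and 826 with control siRNA, with 3 called higher uncorrected and 5 higher and 1 lower corrected. Without Hdc, that sum was 480 and 493 with LMO2 siRNA against 455 and 445 with control siRNA. Granulocyte and macrophage markers (6 of 8 measured, 2 called higher uncorrected) summed to 697 and 739 with LMO2 siRNA against 668 and 703 with control siRNA, and without Cd68 to 548 and 577 with LMO2 siRNA against 563 and 595 with control siRNA. Lymphocyte markers (5 of 7 measured, 2 called lower uncorrected and 1 corrected) summed to 659 and 601 with LMO2 siRNA against 773 and 665 with control siRNA. Among these markers, Lyz2, Cd79a, Tpsab1 and Tpsb2 were not well above background in both channels. Normalised signals include the offset of 50, so sums over dim markers are limited by signal over background. The part of other cells in the spectrin and ankyrin ratios was not tested.

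The 250 bases before the transcription start were available from RefSeq (GRCm38.p6) for 5 of the 8 genes, in 7 promoters. They were searched on both strands for GATAA, the core of GATA factor sites, for CANNTG, the E-box of TAL1 and its partners, and for CACCC, the core of KLF1 sites. Across 32851 promoters, 22.6% held GATAA, 66.2% CANNTG and 52.0% CACCC. Sptb (chr12:76710548-76710797, minus strand) and Add2 (chr6:86028431-86028680, plus strand) were called lower in both corrected and uncorrected values, and each held 1 CANNTG, 1 CACCC and no GATAA. Epb41, called lower in the same sets, has 3 promoters in the table, with 2, 1 and 0 CANNTG and neither CACCC nor GATAA. Epb42 (chr2:121036878-121037127, minus strand), the dim gene, held 1 GATAA and 4 CANNTG. No other of the 7 promoters held GATAA, and a match describes letters in this window only. The 3 promoters are shown 5′ to 3′ along the gene with GATAA, on either strand, and CANNTG in capitals.
Sptb promoter: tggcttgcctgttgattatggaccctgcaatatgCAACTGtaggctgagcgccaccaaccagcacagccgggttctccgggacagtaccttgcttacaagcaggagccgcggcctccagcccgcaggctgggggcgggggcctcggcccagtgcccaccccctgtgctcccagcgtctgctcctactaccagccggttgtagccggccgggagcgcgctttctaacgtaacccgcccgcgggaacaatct
Add2 promoter: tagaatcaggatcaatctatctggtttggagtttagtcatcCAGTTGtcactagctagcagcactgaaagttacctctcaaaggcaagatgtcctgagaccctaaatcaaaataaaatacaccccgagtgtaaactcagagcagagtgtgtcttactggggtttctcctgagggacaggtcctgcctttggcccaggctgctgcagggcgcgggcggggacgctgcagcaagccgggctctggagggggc
Epb42 promoter: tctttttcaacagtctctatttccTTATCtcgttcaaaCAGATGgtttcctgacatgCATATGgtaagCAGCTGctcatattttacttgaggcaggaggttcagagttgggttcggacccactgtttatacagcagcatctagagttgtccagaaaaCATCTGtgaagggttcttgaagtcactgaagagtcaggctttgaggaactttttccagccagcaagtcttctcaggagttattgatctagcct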

How the data were processed

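RNA of the LMO2 siRNA and control siRNA arms was measured on 2 two-colour Agilent arrays that share 1 slide, which leaves no batch of slide or scan to test. Per the file headers, Agilent Feature Extraction version 9.1.3.1 made the deposited intensity values (mean signal, local background median and processed signal) on a linear scale. The processed signals had been background-subtracted, position-corrected and dye-normalized, per the file headers. The deposited series table holds log10 ratios of red over green, within 0.005 log10 units of the scanner's at the largest difference. The depth of an array is not a count, and its precision is limited by the number of arrays. The share of spots well above background was 62.9% and 55.84% in the LMO2 siRNA channel and 68.17% and 60.36% in the control channel.

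Mean signals were corrected with normexp (offset 50) and loess (control spots at weight 0) in limma 3.58.1 (R 4.3.3), and every log2 ratio is LMO2 siRNA over control siRNA. For position correction, signals were first divided by the ratio the scanner gives for position, and loess followed. After leaving out 1639 control spots, 41174 probes remained. They were named by accession (24844) or by symbol or synonym (7856) through a RefSeq gene table of GRCm38.p6, or kept the array's symbol (1796), and 6678 have none. Probes had to exceed background clearly in 1 channel or both on each array (24737 passed), and the brightest of them stands for its gene. Mean log2 ratios were tested against 0 with lmFit and eBayes, with Benjamini-Hochberg adjustment at 0.05 over all genes or all probes. With 1 residual and 44.4 prior degrees of freedom (9.43 with position correction, 2.23 in processed signals), p-values lean mostly on the spread shared by all genes. The code was tested on simulated data. Named genes are Lmo2, the 8 skeleton genes with all their probes, Add1 and Add3, and the 4 unsaturated genes of largest absolute ratio from each of the membrane partner and family lists. The genes, lists, tests and the rule of 3 sets were chosen with earlier results of these data known. Another gene of that rule is not reported here. Genes of like pattern are not named, since 2 arrays give no measure of likeness. Alternatives covered background, offset, normalization, filter, flagged spots, probe summary, position, processed signals, the series table and each array alone.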

Additional observations from a re-analysis of the deposited data

How the results depend on the processing

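Without position correction 4 of the 8 genes were called lower. That count was 0 in the scanner's processed signals, 0 in the series table and 7 with median centring in place of loess, and it was 3 with the mean over each gene's probes. Of all genes, 3474 were called higher and 3873 lower, against 1047 and 556 in processed signals, 974 and 482 in the series table, and 421 and 9050 with median centring, which set the median of all genes at -0.41. No gene of the 8 was called the same way in all 3 sets, and 4 were without the processed signals, an alternative added after seeing the data. The test on processed signals borrows less from other genes (2.23 prior degrees of freedom) than the uncorrected (44.4) and corrected (9.43) tests. Missing its threshold does not show that a gene was unchanged. Lmo2 lay between -2.02 and -1.82 with either array left out.

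Among single genes, averaging over probes turned Add2 to 0.0884 and Dmtn to 0.0202. An offset of 10 gave 0.0112 for Dmtn and 0.0252 for Tmod1. No background correction gave -0.0042 for Epb42 and 0.0179 for Tmod1, and median centring gave -0.0254 for Epb42. These Dmtn, Tmod1 and Epb42 means were near 0 to begin with, and the cause of each turn was not tested. With 1 array left there is no residual spread, so values from single arrays carry no test. Each array holds both arms and its ratio is taken within the array, so the test of that ratio against 0 is already paired by array. The dim probes of Epb42 and of Epb41 are limited by signal over background.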
